A study of Mus musculus with 4 samples.

Results

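Eomes-positive lymph node Cd8 cells were the cells that the authors' annotation places in the lymph node library with the label Cd8 and that held at least 1 Eomes UMI (a unique molecular identifier, which marks 1 captured RNA molecule). There were 611 such cells among 2788 lymph node Cd8 cells, which is 21.9% (95% exact Clopper-Pearson interval 20.4 to 23.5), out of 4988 cells in the lymph node library and 10558 in the series. The other 2177 Cd8 cells held 0 Eomes UMIs and are called Eomes-negative, although a cell can express a gene at a low level and show no UMI. Since the cells were chosen by their measured Eomes UMIs, the Eomes level itself is a description and no finding.

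The series holds 4 samples, an RNA library and a T cell receptor library from tumor and from lymph node, made with 10x Genomics 5′ chemistry. Per the labels' protocols, mice carried B16F10 melanoma, a transplantable mouse skin tumor grown under the skin in matrigel, and received 1 cyclophosphamide dose of 250 mg/kg followed by purified TRP1 CD4+ T cells, whose transgenic receptor sees a melanocyte protein. Tissue was taken on day 11 after the transfer. All 4 samples carry the strain label RAG1- BW TRP-1 TCR and the treatment label untreated, and the lymph node titles name endogenous cells. Both sides of the comparison share all of this, since they come from the same library. The sources used here do not give the number and age of the animals, the sort gates or how the Cd8 label was assigned. The source label names CD4+ and CD4+CD8+ T cells, yet a Cd4 UMI was found in 2.45% of Eomes-positive and 5.19% of Eomes-negative Cd8 cells, so the cells are called here by the annotation's own label.

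Eomes (eomesodermin) is a transcription factor of the T-box family, a relative of T-bet (Tbx21). In CD8 T cells it is known for its part in effector and memory differentiation and for driving Il2rb, the receptor chain through which memory cells receive IL-15. Memory-phenotype CD8 cells with high Eomes, CD44 and CD122 (the protein of Il2rb) are also known in mice that have not met the matching foreign antigen, while naive CD8 cells carry Ccr7, Tcf7 and Lef1.

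The 12 named higher genes have the highest ratios of the genes with at least 50 CPM in Eomes-positive cells and 100 UMIs in all. The motif TCACACC is the core of the sequence that T-box factors are known to bind. Among the 12, it stood within 250 bases upstream of a RefSeq start of Xcl1 and of Crybg1. These upstream sequences are shown because they hold that motif. Crybg1 was not called, with a log2 ratio of 0.64 that was 0.39 at 2000 UMIs per cell and 0.03 when the sides were called again at that depth. They are from RefSeq on build GRCm38.p6, 5′ to 3′ on the gene's strand, which is the minus strand for both, with the motif or its reverse complement GGTGTGA in capitals. The Xcl1 sequence is chr1:164935523-164935772, where the motif begins 188 bases before the start. The Crybg1 sequence is chr10:44022276-44022525, where it begins 89 bases before the start used. That Crybg1 stretch lies inside the gene's span, chr10:43950307-44148828, and not beside the outer end where the minus strand places the gene's first base.
Xcl1: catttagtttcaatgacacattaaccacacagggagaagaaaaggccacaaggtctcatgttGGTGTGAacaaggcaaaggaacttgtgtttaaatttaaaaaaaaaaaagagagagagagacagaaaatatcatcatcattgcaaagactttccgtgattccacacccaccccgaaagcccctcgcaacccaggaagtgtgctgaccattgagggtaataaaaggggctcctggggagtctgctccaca
Crybg1: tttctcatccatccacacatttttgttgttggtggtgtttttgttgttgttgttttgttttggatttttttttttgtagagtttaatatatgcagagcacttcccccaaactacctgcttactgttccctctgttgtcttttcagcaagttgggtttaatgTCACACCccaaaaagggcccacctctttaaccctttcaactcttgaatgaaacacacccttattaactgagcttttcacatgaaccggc

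The motif was searched on both strands in the 250 bases upstream of the start used for each gene. It was found for 2 of the 9 named higher genes with an entry in the RefSeq table and for 0 of the 9 named lower genes with one, against 3.49% of 3470 counted genes with an entry and 3.33% of all 32851 promoters of that length. A match of these letters is a description and no measured binding.

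Depth differed between the sides and bears on everything below. Per cell, Eomes-positive cells had a median depth of 7150 UMIs, with 1805 genes (quartiles 5841 and 8592 UMIs), against 6110 UMIs and 1659 genes in Eomes-negative cells (quartiles 4925 and 7349 UMIs), with 4536368 UMIs in all Eomes-positive cells and 13582896 in all Eomes-negative cells. When every cell was thinned to 2000 UMIs, 609 Eomes-positive and 2153 Eomes-negative cells remained, and the median was 749 genes in Eomes-positive and 762 in Eomes-negative cells. Ribosomal protein genes held 46.5% of UMIs in Eomes-positive and 45.0% in Eomes-negative cells, and mitochondrial genes 3.13% and 3.15% in the same order. The 2 RNA libraries shared 36 cell barcodes, which touched 5 Eomes-positive and 21 Eomes-negative cells.

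The share of Cd8 cells with an Eomes UMI followed depth. It was 7.89% (5.01 to 11.7) in the shallowest decile of cells, with a median of 3152 UMIs, and 39.1% (33.3 to 45.1) in the deepest, with a median of 10408 UMIs. The share did not climb at every step, since the fourth decile had 22.3% and the fifth 15.3%. Thinned to 2000 UMIs, 7.86% of lymph node Cd8 cells (217 of 2762) still showed an Eomes UMI.

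**Figure D1:**
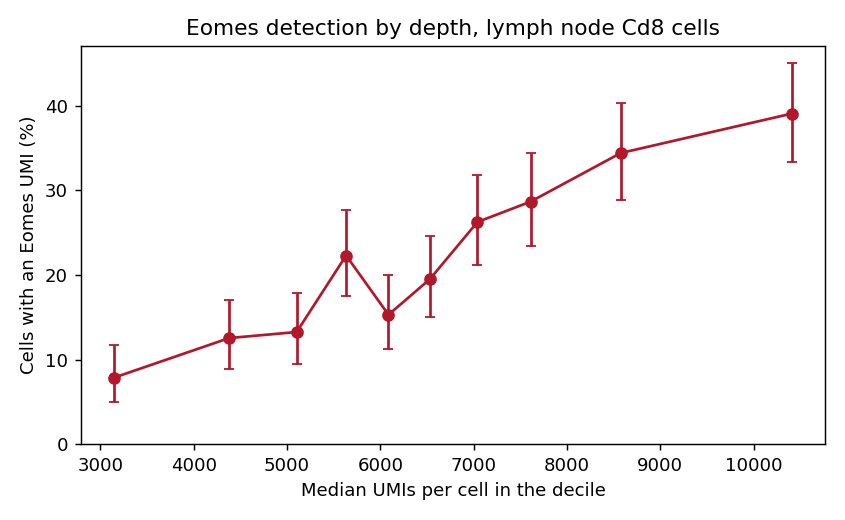
Share of lymph node Cd8 cells with at least 1 Eomes UMI (vertical axis, percent) by decile of depth (horizontal axis, median UMIs per cell), with exact Clopper-Pearson 95% intervals. The share is 7.89% in the shallowest and 39.1% in the deepest decile, with 22.3% in the fourth and 15.3% in the fifth.

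Most Eomes-positive cells rested on a single molecule. Of the 611, 410 (67.1%) had 1 Eomes UMI, 131 had 2 and 70 had 3 or more, up to 8 in a cell. At the threshold, cells with 1 UMI stand just inside and cells with 0 just outside, and the pooled Eomes level was 141 CPM with 1 UMI, where CPM are a gene's UMIs scaled to a common total, 246.6 CPM with 2 and 470.1 CPM with 3 or more. Free RNA can also place a stray UMI in a cell. In lymph node Cd4-labelled cells, at a median of 4763 UMIs, 13 of 1873 (0.694%, 0.370 to 1.18) had an Eomes UMI, and at 2000 UMIs 0.331% (0.122 to 0.720) did. The 7.86% of Cd8 cells at the same depth, whose median before thinning was 6306 UMIs, lay above that share beyond counting error. In lymph node Treg-labelled cells 6 of 321 (1.87%) had an Eomes UMI. Of the tumor cells, 575 of 2693 Tdp-labelled cells (21.4%) and 84 of 2451 Cd4-labelled cells (3.43%) had one.

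Eomes-positive and Eomes-negative cells were alike for most genes. UMIs were pooled per side, expressed as CPM and compared as the log2 ratio of CPM plus 1 over 4348 genes with at least 20 CPM on either side, Eomes and the variable, diversity and joining segments of receptors aside. Of these, 12 genes (0.276%) were 2-fold or more higher in Eomes-positive cells and 15 (0.345%) were 2-fold or more lower, and the median log2 ratio was -0.04. With 1 library there is no replicate and no test, and each interval below is an exact 95% Poisson interval of a ratio, or an exact Clopper-Pearson interval of a share, that covers counting error only. At 2000 UMIs per cell, 17 of 4466 counted genes (0.381%) were called higher and 24 (0.537%) lower, among them 11 of the 12 and 10 of the 15. With Eomes-negative cells weighted to the depth deciles of Eomes-positive cells, 8 genes were called higher, all among the 12, and 17 lower, of which 13 were among the 15. The 20 CPM needed on either side admits a gene through the side where it is high, as for 7 of the 12 genes called higher and 11 of the 15 called lower. With 20 CPM asked over all cells together, 4167 genes were counted, 6 were called higher and 9 lower, and 40.0% of ratios lay above 0 and 60.0% below. Without the cells whose barcode also stood in the tumor library, 11 genes were called higher and 14 lower. The highest log2 ratios were those of Xcl1, Plek, Gzmm and Ctla2a, and the lowest those of Tnfrsf4, Cd74, Itgae and Ctla4.

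Among the chemokines, Ccl5, which memory CD8 cells are known to store as ready mRNA, had by far the highest level of the 12 higher genes, at 1389.9 CPM in Eomes-positive and 663 CPM in Eomes-negative cells. That is a 2.10-fold ratio (2.03 to 2.17). A Ccl5 UMI was found in 53.2% of Eomes-positive cells (49.2 to 57.2) and 27.0% of Eomes-negative cells (25.2 to 28.9). With each cell thinned to 2000 UMIs, these became 40.2% (36.3 to 44.3) and 18.8% (17.2 to 20.5) in the same order, while 0.607% of lymph node Cd4-labelled cells showed one. Ccl5 thus separated the sides at equal depth, yet a UMI of it was missing from many Eomes-positive cells.

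Xcl1, a chemokine that draws cross-presenting dendritic cells, had the highest ratio of all the counted genes, 84.4 CPM in Eomes-positive against 22.5 CPM in Eomes-negative cells, a 3.75-fold ratio (3.22 to 4.37). A single Eomes-positive cell held 176 of the 383 Xcl1 UMIs of its side, and the 10 cells with most held 61.1%, so the interval understates the error. In Eomes-negative cells the 10 cells with most held 40.9% of 306 UMIs. Without the 10 cells with most Xcl1 UMIs the log2 ratio was 1.23, against 1.86 with them. The share of cells with an Xcl1 UMI does not depend on such cells. At 2000 UMIs it was 7.22% (5.30 to 9.58) in Eomes-positive and 2.18% (1.61 to 2.89) in Eomes-negative cells.

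Ccl4, an inflammatory chemokine, had 100.5 CPM in Eomes-positive and 46.3 CPM in Eomes-negative cells, a log2 ratio of 1.10. The ratio rested in part on few cells: it was 0.71, under 2-fold, without the 10 cells with most Ccl4 UMIs. The checks of depth differed. With Eomes-negative cells weighted to the same depth deciles the ratio was 0.85, also under 2-fold. At 2000 UMIs per cell it was 1.22, and 0.81 when the sides were called again at that depth. Ccl3, Ifng, Fasl, Tnfsf10, Il2 and Csf1 stayed under 20 CPM on both sides. Over all 4348 counted genes, 0.276% were called higher and the median log2 ratio was -0.04. Of the list of effector chemokines and cytokines, 3 of 4 counted genes of 10 were called higher and none lower, with a median log2 ratio of 1.08. The exception was Tnf at 24.3 CPM in Eomes-positive and 32.8 CPM in Eomes-negative cells.

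**Figure D2:**
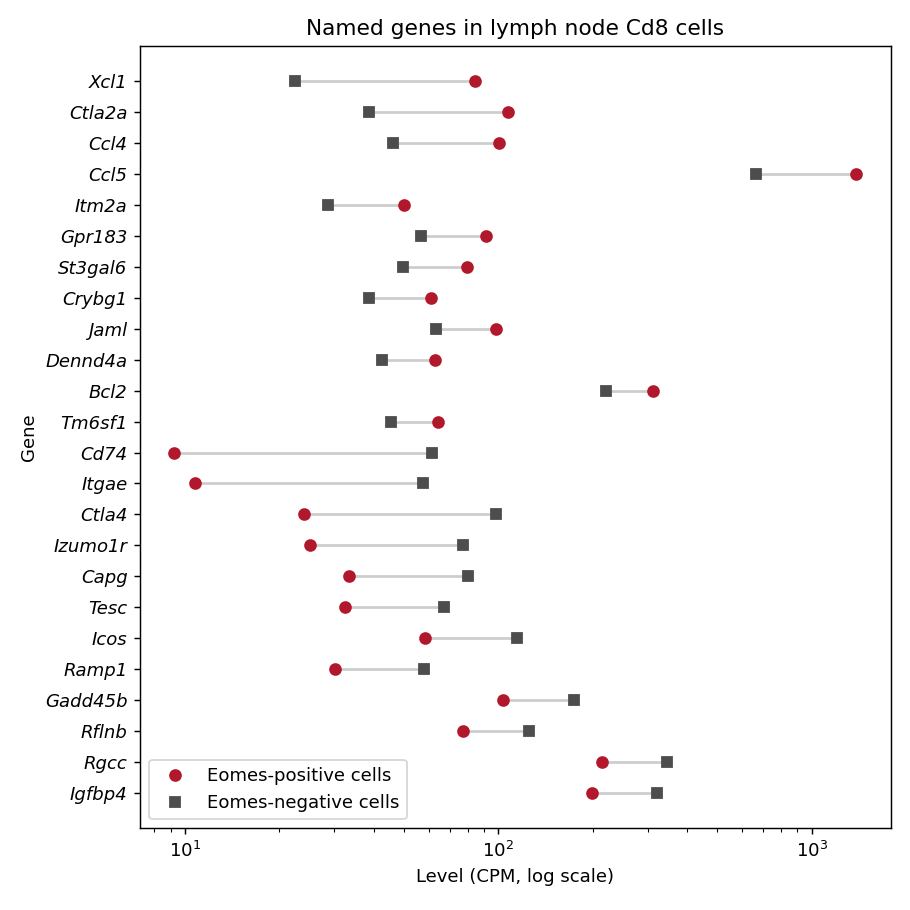
Level (CPM, log scale) of the 12 named higher genes (top) and the 12 named lower genes (bottom), chosen by their ratio, in 611 Eomes-positive cells (red circles) and 2177 Eomes-negative cells (grey squares), pooled over cells, so no error bar is drawn. Ccl5 lies highest at 1389.9 against 663 CPM, and Cd74 has the widest gap at 9.26 against 61.4 CPM.

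Granule genes were uneven. Gzmm, the granule protease granzyme M, had 45.6 CPM in Eomes-positive and 14.4 CPM in Eomes-negative cells, a 3.16-fold ratio (2.59 to 3.86). At 2000 UMIs it showed a UMI in 7.06% (5.16 to 9.39) of Eomes-positive and 1.95% (1.41 to 2.63) of Eomes-negative cells, and in 0 of 1811 lymph node Cd4-labelled cells, which allows a share of up to 0.166%. Nkg7, a granule membrane protein, had 1082 and 784 CPM, and perforin (Prf1) 29.1 and 20.8 CPM, in Eomes-positive and Eomes-negative cells. Granzymes B and K (Gzmb, Gzmk) were rare, at 14.5 and 17.4 CPM in Eomes-positive and 2.87 and 3.46 CPM in Eomes-negative cells, below the 20 CPM needed to be counted. In all, 6 of the 8 counted granule genes had ratios above 0, against 41.1% of all counted genes, with a median log2 ratio of 0.25. The 1 called, Gzmm, reached 20 CPM in Eomes-positive cells only, although it also did so over all cells together. Ctla2a, an inhibitor of cysteine proteases, had 107 CPM in Eomes-positive and 38.7 CPM in Eomes-negative cells, a 2.78-fold ratio (2.45 to 3.15).

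Receptors shared with natural killer cells did not all differ one way. Klrk1 (NKG2D) had 26.2 CPM in Eomes-positive and 10.5 CPM in Eomes-negative cells, a 2.49-fold ratio (1.94 to 3.20). Slamf7, a receptor of the SLAM family, had 29.3 CPM in Eomes-positive and 11.5 CPM in Eomes-negative cells. Klrd1 (CD94) had 189 and 154 CPM and Cd160 46.9 and 38.1 CPM in Eomes-positive and Eomes-negative cells. Cd226, an activating receptor, ran the other way, with 36.8 CPM in Eomes-positive and 54.7 CPM in Eomes-negative cells. Of this list 5 of 16 genes were counted, and the 2 called higher, Klrk1 and Slamf7, reached 20 CPM in Eomes-positive cells only. The 3 that reached it over all cells together were Klrd1, Cd160 and Cd226, of which none was called (median log2 ratio 0.29). Klrc1 and Ly49 genes such as Klra7 were below 20 CPM on both sides. Klrc1 had 19.8 CPM in Eomes-positive and 5.37 CPM in Eomes-negative cells, and Klra7 9.48 and 3.68 CPM. Klrg1, also below 20 CPM, was level at 0.661 and 0.663 CPM in the same order. The other genes called higher were Plek (pleckstrin), at 29.3 CPM in Eomes-positive and 8.25 CPM in Eomes-negative cells, and Samd3, Ppm1j, Arl4d and 1700025G04Rik, with log2 ratios between 1.03 and 1.27.

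No member of the cytokine receptor list or the survival list was called. Il2rb had 230.1 CPM in Eomes-positive and 169 CPM in Eomes-negative cells, a 1.36-fold ratio (1.26 to 1.46). Il18rap, a subunit of the IL-18 receptor, had 24.7 and 12.2 CPM, and its partner Il18r1 37.3 and 28.3 CPM, in Eomes-positive and Eomes-negative cells. Il18rap had a plain CPM ratio of 2.02 (1.58 to 2.58). It was not called because the log2 ratio of CPM plus 1 was 0.96. The median over the 10 counted cytokine receptor genes was 0.18. Bcl2, which protects from cell death, had 312 CPM in Eomes-positive and 220.0 CPM in Eomes-negative cells, a 1.42-fold ratio (1.33 to 1.51), while Bax had 133 and 131 CPM, and none of 11 counted survival genes was called (median -0.09). The chemokine receptor Cxcr3 had 51.1 and 37.0 CPM and the hyaluronan receptor Cd44 44.7 and 33.1 CPM in Eomes-positive and Eomes-negative cells. Other named higher genes were Itm2a (log2 ratio 0.79), Gpr183, an oxysterol receptor that guides cells within lymphoid tissue (0.68), the sialyltransferase St3gal6 (0.67), Crybg1 (0.64), the adhesion molecule Jaml (0.62), Dennd4a (0.55) and Tm6sf1 (0.49). Depth mattered for some of them. With the sides called again at 2000 UMIs, St3gal6 had 0.10, Crybg1 0.03 and Tm6sf1 -0.14. Itm2a then had 0.98, Gpr183 0.58, Jaml 1.02 and Dennd4a 0.96.

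Transcription factors did not follow Eomes closely. Tbx21, which encodes T-bet, had 22.5 CPM in Eomes-positive and 14.9 CPM in Eomes-negative cells, and Runx2 20.3 and 10.1 CPM. Runx2 had a plain CPM ratio of 2.01, but a log2 ratio of CPM plus 1 of 0.94. Batf, a factor of activated T cells, had 78.5 CPM in Eomes-positive and 114 CPM in Eomes-negative cells, Id2 66.6 and 90.7 CPM, and Bhlhe40 15.7 and 30.7 CPM, all lower in pooled Eomes-positive cells. With 1, 2 and 3 or more Eomes UMIs, Bhlhe40 had 11.3, 16.9 and 35.3 CPM, the last above Eomes-negative cells. Id2 had 59.5, 75.3 and 86.6 CPM, and Batf 80.5, 69.6 and 84.8 CPM. None of the 9 counted T-box and effector or memory factors was called. Their median log2 ratio was 0.16, but Tbx21 and Runx2 were counted through Eomes-positive cells only, and over the 7 that reached 20 CPM in all cells together it was -0.44. In addition, Prdm1, Zeb2 and Zfp683, factors of terminal effector and resident cells, stayed under 2 CPM on both sides. The naive and quiescence factors Tcf7, with 296.5 CPM in Eomes-positive and 321 CPM in Eomes-negative cells, and Lef1, with 207 and 245 CPM, differed little. None of the 11 counted naive factors was called (median -0.11).

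Naive genes as a whole split around 0 much as all counted genes did. Igfbp4, an insulin-like growth factor binding protein typical of naive T cells, had 199 CPM in Eomes-positive and 322 CPM in Eomes-negative cells, a ratio of 0.619 (0.576 to 0.665). Rflnb had 77.2 CPM in Eomes-positive and 126 CPM in Eomes-negative cells. The lymph node homing receptor Ccr7 had 344 and 435 CPM in Eomes-positive and Eomes-negative cells. Of 17 counted naive genes 7 had ratios above 0 and 10 (58.8%) below, against 58.9% below over all counted genes. None was called, and the median was -0.11, against -0.04 over all counted genes. At 2000 UMIs per cell, a Ccr7 UMI was found in 43.0% (39.1 to 47.1) of Eomes-positive and 48.1% (46.0 to 50.3) of Eomes-negative cells, so this naive transcript was common on both sides.

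The memory-like name was set beside 12 markers, which are Il2rb, Cd44, Cxcr3, Ccl5, Ly6c2, Il18rap, Gzmm, Klrd1, Tbx21, Ctla2a, Il18r1 and Klrk1. They were chosen with earlier results of these data known, and Ccl5, Gzmm, Ctla2a and Klrk1 are among the 12 genes called higher. Their values and the shares of cells below therefore describe the cells and are no independent check of the name. All 12 had ratios above 0, with a median log2 ratio of 0.51 and 4 called. Of these, Gzmm, Klrk1, Il18rap and Tbx21 reached 20 CPM in Eomes-positive cells only. Over the 9 that reached it in all cells together the median was 0.46, with 3 called, against -0.04 for all 4167 genes counted that way. Ly6c2, a surface protein of memory and of some naive CD8 cells, had 1407 CPM in Eomes-positive and 1021 CPM in Eomes-negative cells. At 2000 UMIs a Ly6c2 UMI was found in 78.3% of Eomes-positive cells (74.8 to 81.5), 58.6% of Eomes-negative cells (56.4 to 60.7) and 2.10% of lymph node Cd4-labelled cells. At the same depth, at least 3 of the 12 genes showed a UMI in 41.5% of Eomes-positive cells (37.6 to 45.6) and 21.0% of Eomes-negative cells (19.3 to 22.8), and none of the 12 did in 5.09% of Eomes-positive and 19.7% of Eomes-negative cells. Of the 17 counted naive genes 7 had ratios above 0, none was called, and the median was -0.11. Igfbp4 and Rflnb had log2 ratios of -0.69 and -0.70, Ccr7 -0.34, Lef1 -0.24 and Tcf7 -0.11. These values do not settle the name memory-like, and the cells are called Eomes-positive here.

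**Figure D3:**
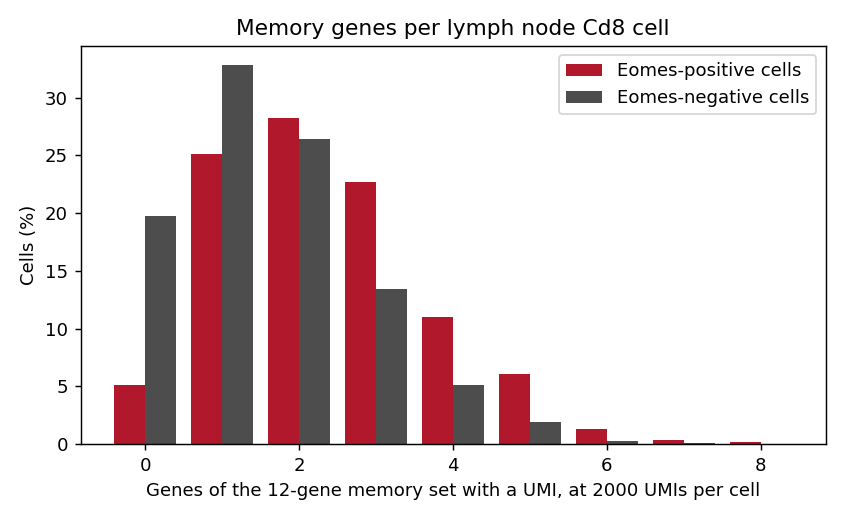
Percent of cells (vertical axis) by how many of the 12 memory genes showed a UMI after thinning to 2000 UMIs per cell (horizontal axis), in 609 Eomes-positive cells (red) and 2153 Eomes-negative cells (grey). No UMI of the 12 was found in 5.09% of Eomes-positive and 19.7% of Eomes-negative cells. The 12 genes were chosen with earlier results of these data known.

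Some memory transcripts climbed with the number of Eomes UMIs and others did not. With 0, 1, 2 and 3 or more Eomes UMIs, the share of cells with at least 3 of the 12 memory genes at 2000 UMIs was 21.0%, 33.7% (29.2 to 38.6), 57.3% (48.3 to 65.9) and 58.0% (45.5 to 69.8). Ccl5 had 663, 1021, 1981 and 2176 CPM over the same 4 classes, and Ctla2a 38.7, 84.6, 137 and 168 CPM. Gzmm had 14.4, 33.4, 69.6 and 63.6 CPM, so that its highest class was the one with 2 UMIs. Il2rb had 169, 191, 284 and 329 CPM. Klrk1 had 10.5, 14.1, 42.3 and 58.3 CPM. Xcl1 had 22.5, 29.9, 75.3 and 382 CPM, and the last value was 72.4 CPM without the cell with 176 UMIs. Tbx21 (14.9, 24.1, 16.9 and 24.7 CPM), Cxcr3 (37.0, 53.3, 45.2 and 51.3 CPM) and Cd44 (33.1, 43.3, 43.3 and 54.8 CPM) did not climb steadily past 1 UMI. Ly6c2 (1021, 1399.6, 1372 and 1509 CPM) stepped up between 0 and 1 UMI and stayed level after it. Median depth climbed as well, at 6110, 6951, 7864 and 7927 UMIs per cell.

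With 201 cells of 2 or more Eomes UMIs set against the 2177 cells with 0, 31 of 4432 counted genes (0.699%) were 2-fold or more higher and 26 (0.587%) were lower by that much, and the 31 included all 12 of the first comparison. The median log2 ratio of the 12 memory markers was then 0.72 and that of the 17 naive genes -0.30, against -0.02 over all counted genes. Gzmk reached 43.0 CPM in cells with 2 or more UMIs, against 3.46 CPM in Eomes-negative cells.

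**Figure D4:**
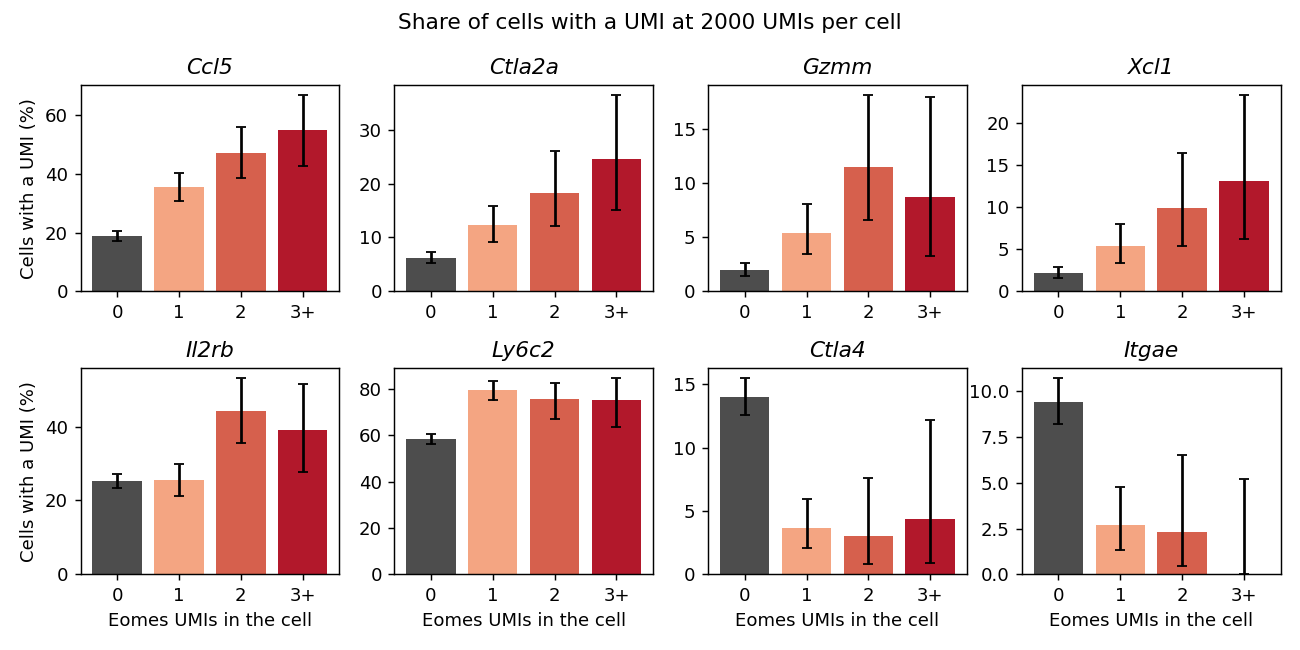
Percent of lymph node Cd8 cells with a UMI of 8 genes (vertical axes, own scale for each gene) by the number of Eomes UMIs in the cell (horizontal axes), after thinning to 2000 UMIs per cell, with exact Clopper-Pearson 95% intervals over 2153, 409, 131 and 69 cells. Ccl5 climbs with each class, Ly6c2 steps up once, and Ctla4 and Itgae are highest in cells with 0 Eomes UMIs.

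The Eomes-positive cells were not uniform among themselves. The 325 with a Ccl5 UMI (median 7382 UMIs) had 148 CPM of Ctla2a, 69.2 CPM of Gzmm, 41.4 CPM of Klrk1, 290.4 CPM of Il2rb and 134 CPM of Xcl1, which was 63.9 CPM without the cell with 176 Xcl1 UMIs. The 286 without one (median 6836 UMIs) had 58.5, 17.1, 7.80, 157 and 23.9 CPM of these genes. Igfbp4 ran opposite, with 131 CPM in cells with Ccl5 and 282 CPM in cells without it, as did the naive gene Dapl1 with 268 and 401 CPM. Ly6c2 and Cxcr3 hardly differed between them, at 1449 and 52.7 CPM with Ccl5 and 1356 and 49.3 CPM without. The Eomes-positive cells without Ccl5 thus kept Ly6c2 at a level above the 1021 CPM of Eomes-negative cells, with Gzmm near the 14.4 CPM found there.

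Log2 ratios of the genes called lower in Eomes-positive cells reached -2.87, that of Tnfrsf4, against 1.86 at the top of the genes called higher. Cd74, the invariant chain of MHC class II, had 9.26 CPM in Eomes-positive and 61.4 CPM in Eomes-negative cells, a ratio of 0.151 (0.108 to 0.206). Itgae (CD103), the integrin that binds E-cadherin, had 10.8 CPM in Eomes-positive and 57.4 CPM in Eomes-negative cells, a ratio of 0.188 (0.138 to 0.251). Ctla4, an inhibitory receptor of activated and regulatory T cells, had 24.0 CPM in Eomes-positive and 98.1 CPM in Eomes-negative cells, a ratio of 0.245 (0.199 to 0.298). Izumo1r, known as folate receptor 4 on regulatory and anergic CD4 cells, had 25.1 CPM in Eomes-positive and 77.3 CPM in Eomes-negative cells. Tnfrsf4 (OX40) was almost missing from Eomes-positive cells at 2.42 CPM, against 24.0 CPM in Eomes-negative cells. Icos, a costimulatory receptor, had 58.4 CPM in Eomes-positive and 115 CPM in Eomes-negative cells.

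Further named lower genes were Capg, an actin-capping protein (log2 ratio -1.23), Tesc (-1.03), the neuropeptide receptor subunit Ramp1 (-0.92), the stress gene Gadd45b (-0.74) and Rgcc (-0.69). Cd83, Mir155hg, Tgfbr3, Trat1, Cd9, Ptger4 and Egr2 were among the others called lower, with log2 ratios between -1.74 and -1.01. Activation genes were lower by less: Nr4a1, an early gene of receptor signalling, had 232 CPM in Eomes-positive and 313 CPM in Eomes-negative cells, and Egr2 18.1 and 37.3 CPM. Of 16 counted activation genes 13 had ratios below 0, against 58.9% of all counted genes, and Egr2 was called, with a median of -0.16. Egr2 reached 20 CPM in Eomes-negative cells only, although it also did so over all cells together. Of 4 counted inhibitory receptor and exhaustion genes Ctla4 alone was called (median -0.24), while Pdcd1, Lag3 and Havcr2 were under 20 CPM on both sides.

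In Eomes-negative cells, UMIs of Izumo1r, Itgae and Cd74 were more often found in cells with a Ctla4 UMI, though most cells with Ctla4 lacked each of them. At 2000 UMIs, an Izumo1r UMI was found in 30.6% of 301 Eomes-negative cells with a Ctla4 UMI and in 7.18% of those without. Itgae was found in 18.3% and 7.99% and Cd74 in 17.3% and 5.35% of the same cells, with and without Ctla4. Taking the set of Ctla4, Itgae, Izumo1r and Cd74, which was chosen after its values were seen, at least 2 of them showed a UMI in 1.31% of Eomes-positive cells (0.569 to 2.57) and 9.61% of Eomes-negative cells (8.40 to 10.9) at 2000 UMIs. On all UMIs, all 4 were present in 48 of 2177 Eomes-negative cells and in 0 of 611 Eomes-positive cells, which allows a share of up to 0.491%.

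Seen from these genes, the Eomes-positive share was 26.5%, 10.6% and 4.71% in cells with 0, 1 and 2 of the 4 genes at 2000 UMIs. It was 0 of 39 cells with 3 genes, which allows up to 7.69%, and 0 of 6 with all 4. Across the memory markers it ran the other way, from 6.80% of cells with none of the 12 genes to 52.4% (29.8 to 74.3) of the 21 cells with 6 or more. Both sets were chosen with results of these data known. These shares thus read the same differences from the side of the genes and add no further evidence.

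**Figure D5:**
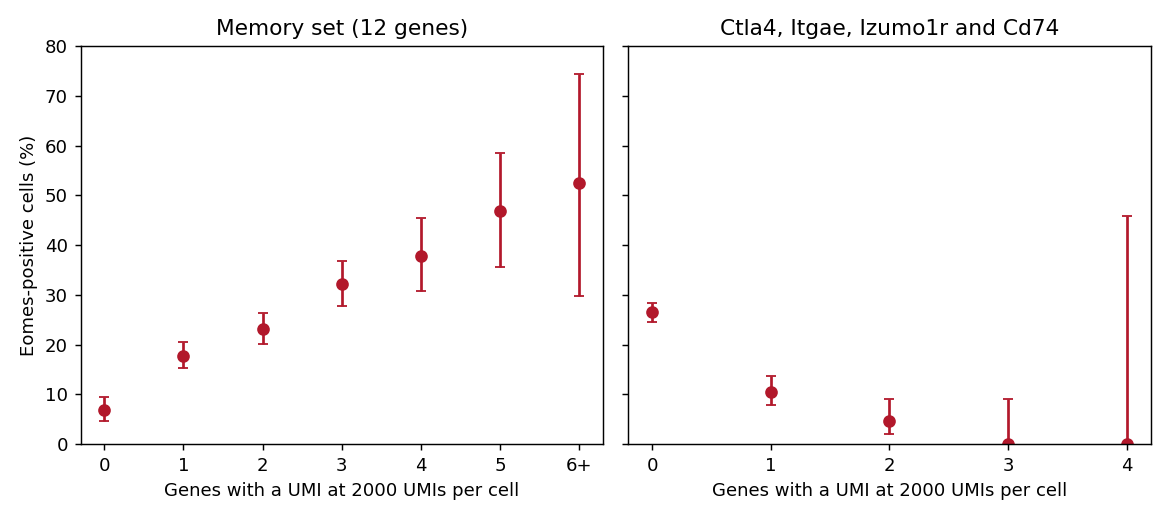
Percent of lymph node Cd8 cells that were Eomes-positive (vertical axis, Eomes called on all UMIs) by the number of genes of a set with a UMI at 2000 UMIs per cell (horizontal axis), for the 12 memory genes (left) and 4 genes lower in Eomes-positive cells (right), with exact Clopper-Pearson 95% intervals. The share is 6.80% with no memory gene and 52.4% with 6 or more, and it is 26.5% with none of the 4 lower genes and 0% with 3 or 4 of them. Both sets were chosen with results of these data known.

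On all UMIs, 489 of the 2788 cells had at least 2 of the 4 genes. They were as deep as the others, with a median of 6303 against 6306 UMIs. They carried 748 CPM of Cd8a and 1209.7 CPM of Cd8b1, against 454 and 1129 CPM in the other Cd8 cells, and 38.7 CPM of Cd4, against 7.11 CPM. Foxp3, the factor that defines regulatory T cells, had 8.93 CPM in them, 1.02 CPM in the other Cd8 cells and 394 CPM in lymph node Treg-labelled cells. Treg-labelled cells had 845 CPM of Ctla4, 588 CPM of Izumo1r and 1236 CPM of Tnfrsf4, against 324, 263 and 77.7 CPM in the 489 cells, and Cd4-labelled cells had 43.0, 92.3 and 27.4 CPM. The part of doublets with such cells in these levels was not tested. When the 489 cells were left out, 575 Eomes-positive and 1724 Eomes-negative cells remained. There 9 genes were called higher and 3 lower, and Ccl5 had a log2 ratio of 0.89, under 2-fold, while Xcl1 had 2.44 and Ctla2a 1.37.

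Markers of the CD8 lineage were present on both sides. Cd8a had 431 CPM in Eomes-positive and 535 CPM in Eomes-negative cells and Cd8b1 1022 and 1185 CPM, against 7.56 and 33.6 CPM in lymph node Cd4-labelled cells. All 6 CD8 T cell markers had ratios below 0 with none called (median -0.21). Of the other lists, Itgae was the one called among 14 counted homing genes (median -0.17), and Xcl1 was called higher and Itgae lower among 6 counted residency genes (median -0.12). In both lists Itgae reached 20 CPM through Eomes-negative cells only, although it also did so over all cells together. None was called among 3 Ly6 (-0.03), 12 S100, annexin and galectin (-0.12), 15 interferon response (-0.01), 4 proliferation (-0.04) and 12 glycolysis genes (0.06), with medians in parentheses. Within the interferon list, Ifi27l2a was the outlying member, with 1502 CPM in Eomes-positive and 2275 CPM in Eomes-negative cells.

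Markers of other cell types were summed as a check. The 5 CD4 helper markers summed to 37.9 CPM in Eomes-positive and 138 CPM in Eomes-negative cells, where both counted members, Tnfrsf4 and Izumo1r, were called lower (median -2.23). Tnfrsf4 reached 20 CPM in Eomes-negative cells only. Izumo1r, the 1 member that reached it over all cells together, had a log2 ratio of -1.58. The 5 regulatory T cell markers summed to 106 and 214 CPM, and Ctla4 was the one called lower of 3 counted (median -0.90). For 7 natural killer markers in the table the sums were 251 and 233 CPM, of which Cd7 gave 208 and 204 CPM. For 6 innate-like T markers they were 499 and 454 CPM, mostly Plac8, with Zbtb16 and Il17rb among those at 0 UMIs in Eomes-positive cells. Gamma delta markers summed to 7.28 and 4.42 CPM in Eomes-positive and Eomes-negative cells. B cell markers summed to 207 and 219.8 CPM, mostly Ighm, with Ms4a1, Igkc, Ly6d and Fcmr among those at 0 UMIs in Eomes-positive cells. Macrophage and dendritic markers summed to 72.5 and 81.4 CPM, mostly Cst3, with 7 of 11 at 0 UMIs in Eomes-positive cells. Neutrophil markers summed to 0 and 0.0736 CPM and melanoma markers to 1.76 and 2.65 CPM, and no erythroid marker of the list was in the table.

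Receptors, which played no part in choosing the cells, were nearly all distinct. A receptor was called in 588 of 611 Eomes-positive cells (96.2%) and 2081 of 2177 Eomes-negative cells (95.6%), with 588 distinct receptors in Eomes-positive and 2068 in Eomes-negative cells. In the lymph node Cd8 cells, 1 Eomes-positive cell (0.170%, 0.00431 to 0.944) and 25 Eomes-negative cells (1.20%, 0.779 to 1.77) shared the receptor of another cell. There were 12 such receptors in 26 cells, and 1 of them joined an Eomes-positive cell, with 5 Eomes and 13 Ccl5 UMIs, to an Eomes-negative one. Repeated receptors were thus rare on both sides. The 2 intervals overlap between 0.779% and 0.944% only, and a difference between the sides in how often repeats occur was not tested.

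Segment use was compared over cells. Trbv13-2, the most used beta segment, was found in 12.3% (9.74 to 15.2) of 586 Eomes-positive cells with a beta variable segment and 11.5% (10.2 to 13.0) of 2075 Eomes-negative cells. Trbv14 was found in 2.39% (1.31 to 3.98) and 5.06% (4.16 to 6.09), and Trbv31 in 1.19% (0.482 to 2.45) and 2.99% (2.30 to 3.81), in Eomes-positive and Eomes-negative cells, and both were named after their values were seen. The beta chain's variable loop (CDR3) had 13.8 ± 1.46 amino acids in 537 Eomes-positive cells and 13.9 ± 1.47 in 1888 Eomes-negative cells (mean ± SD over cells).

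Tumor Tdp-labelled cells with an Eomes UMI come from another library, so their values are set side by side without a fold. The rule sets the Eomes level of both groups. The 611 lymph node cells had 207 CPM of Eomes and the 575 tumor cells 179.6 CPM, at median depths of 7150 and 7237 UMIs. Ccl5 had 1389.9 CPM in the lymph node cells and 18740.3 CPM in the tumor cells, and Gzmb 14.5 and 3242 CPM. Lag3, an inhibitory receptor, had 7.05 and 709.5 CPM in lymph node and tumor cells. Tcf7 had 296.5 CPM in the lymph node and 1.39 CPM in the tumor cells, Bcl2 312 and 32.5 CPM, Gzmm 45.6 and 1.39 CPM, and Xcl1 84.4 and 12.8 CPM. Within the tumor, Eomes-positive and Eomes-negative Tdp cells had 18740.3 and 19930.9 CPM of Ccl5 and 12.8 and 23.2 CPM of Xcl1. The higher Ccl5 and Xcl1 of Eomes-positive lymph node Cd8 cells were thus not seen between the matching sides in tumor Tdp cells, although the difference between the tissues was not tested.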

How the data were processed

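The reads were processed with Cell Ranger 3.1.0 against mm10, per the submitters' processing notes. The authors deposited raw UMI counts per gene and cell, 14721 genes by 10558 cells, with both RNA libraries in a single table. The second deposited table holds other values (not counts) per cell, namely the library, the cell label, a clonotype name and CDR3 sequences. The sources used here do not give how the labels were assigned or which cells were removed earlier.

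UMIs were pooled per side and expressed as CPM. Genes at 20 CPM or more on either side were counted and called at 2-fold on the log2 ratio of CPM plus 1. With 1 library, n is 1 for every group, no p-value was computed, and intervals reflect counting error alone. Where no count was seen, 3 counts set the upper limit. Thinning drew 2000 UMIs per cell, leaving out shallower cells. Named genes were the 12 highest and 12 lowest ratios at 50 CPM or more on the higher side and 100 or more UMIs in all, without Eomes, Xist, Y-linked genes, receptor segments, predicted genes and genes of mitochondria or ribosomal proteins. Members of the 29 gene lists (276 of 290 genes in the table) were named as examples of their list, and the values of some members are not reported here. The members and the lists were chosen with earlier results of these data known. Alternatives were other totals, TMM scaling (edgeR 4.0.16), equal cell weights, depth matching, other thresholds, and leaving out doublets, cycling cells or cells with other markers. The scrublet caller in scanpy 1.11.5 called 1 lymph node cell, so it did not work as a doublet check, and the 5% of cells with most UMIs were left out instead. The steps were tested on simulated data. Promoters are from RefSeq on GRCm38.p6.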

Additional observations from a re-analysis of the deposited data

How the results depend on the processing

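Main counts were 12 genes higher and 15 lower in Eomes-positive cells. Leaving ribosomal protein, mitochondrial and receptor genes out of the total gave 23 higher and 30 lower, because more genes then reach 20 CPM. Thinning to 2000 UMIs gave 24 lower with the sides kept, and 74 higher and 87 lower with the sides called again, where 217 Eomes-positive cells were left and 8 of the 12 and 8 of the 15 genes were called again. Asking for 2 or more Eomes UMIs gave 31 higher and 26 lower. No CPM minimum gave 56 higher and 149 lower, a minimum of 50 CPM gave 5 and 6, 20 CPM over all cells together gave 6 and 9, and a pseudocount of 10 gave 6 and 7. Leaving out cells with a UMI of another cell type's marker gave 57 higher and 68 lower, but left 112 Eomes-positive and 430 Eomes-negative cells. Leaving out cells with 2 or more of Ctla4, Itgae, Izumo1r and Cd74 gave 3 lower, by construction for those 4 genes. That alternative, the 20 CPM over all cells together, and those without the 10 cells with most UMIs of a gene, the 5% of cells with most UMIs and the cells with shared barcodes, were chosen after seeing the data. Of the named genes, Tm6sf1 alone crossed 0, between -0.14 and 0.75 on the log2 scale. Ccl5 ranged from 0.89 to 1.63, Xcl1 from 1.23 to 2.96 and Itgae from -4.74 to -1.70. TMM moved all ratios by 0.04. No paired analysis was possible because both sides come from 1 library. Single Eomes UMIs limit the calling of sides, since a shallow cell can miss them.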
